A study of Lolium perenne with 10 samples.

Results

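The 150 genes described here were selected for a high level in leaves of perennial ryegrass (Lolium perenne) seedlings under drought and a level near that of untreated seedlings under 3 other treatments. Members were chosen by their CPM, the counts of a gene scaled to library depth and to a TMM factor that corrects for differences in library composition, where d was the group mean of log2(CPM + 1) minus that of control. A gene met the rule when d was at least 1 under drought and between −1 and 1 in each other treatment, and the 150 genes with the highest d under drought were taken from the 1176 that met it. These 1176 were 5.39% of the 21817 genes with at least 10 counts in both libraries of control, drought or a temperature group, out of 46394 genes in the deposited table. The same libraries chose the genes and supply their values, so the drought values, and those against control in the other treatments, are a description without a test.

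The study compared leaves of wild-type seedlings in 5 groups of 2 libraries, each made from 30 seedlings, namely untreated controls and seedlings under drought, under submergence or at one of 2 temperatures. Growth chambers were set to days of 16 h at 22 °C and nights at 18 °C. Drought seedlings were 7 days old when water was withheld for 7 days, and seedlings of the temperature groups were 14 days old and were treated for 12 h at 4 or 42 °C. For both temperature groups the title and the treatment field name opposite treatments, so title-cold and title-heat follow the titles alone, and which group was at which temperature is not known. The labels do not state how old control and submergence seedlings were or how long submergence lasted. In comparisons with control or submergence, drought and a difference in age therefore cannot be told apart. A protocol text in the labels, written for Arabidopsis, describes a longer drought of 2 weeks from an age of 14 days with 5 days of recovery, and whether it applies here is not known. Nothing in the labels says that the libraries of a group were separate cultures, so the spread behind each p-value is that between these libraries and may be technical.

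Plants that lose water accumulate abscisic acid, a hormone that closes stomata and switches on genes for protective proteins such as dehydrins, for proline and sugar synthesis, and for protein phosphatases that damp the signal. Many of these genes in grasses also respond to cold, heat or salt. Genes that respond to drying and not to temperature are therefore a narrower class. The deposited table identifies genes only as assembled sequence clusters without names, and none of them matched the Kyuss_2.0 reference gene table (0 of 46394), so no member could be placed in any of these functions. Members are therefore described by their rank in d under drought, with 2 identifiers printed.

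Library totals ran from 10847727 to 12605087 counts, and the 2 libraries of each group had correlations of 0.96 to 0.982 over genes as log2(CPM + 1), where genes are not independent replicates. TMM factors ran from 0.753 to 1.40. Where a library had 0 counts of a gene, up to 3 counts are allowed by counting error, which is 0.191 to 0.362 CPM depending on the library. Gene lengths are not known, so CPM values order genes by reads and not by transcripts. In bulk leaf RNA, fewer cells that carry a transcript and less transcript per cell cannot be told apart.

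The selected genes made up a small part of the leaf transcriptome that was several times larger under drought than elsewhere. Together they held 0.753% and 0.771% of all counts in the drought libraries, 0.0816% and 0.0978% in the controls, and 0.0816% to 0.156% over the 8 libraries without drought. The pair of genes with the highest drought CPM supplied 38.4% and 33.1% of the members' counts in the drought libraries. Each of the 150 genes had at least 10 counts in both drought libraries, whereas 17 to 32 of them had 0 counts in any one of the other 8 libraries. The median member stood at 15.7 and 19.0 CPM under drought, 0.729 and 1.03 CPM in control, 0.861 and 1.02 CPM under submergence, 0.991 and 1.37 CPM in title-cold, and 1.48 and 1.21 CPM in title-heat.

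**Figure D1:**
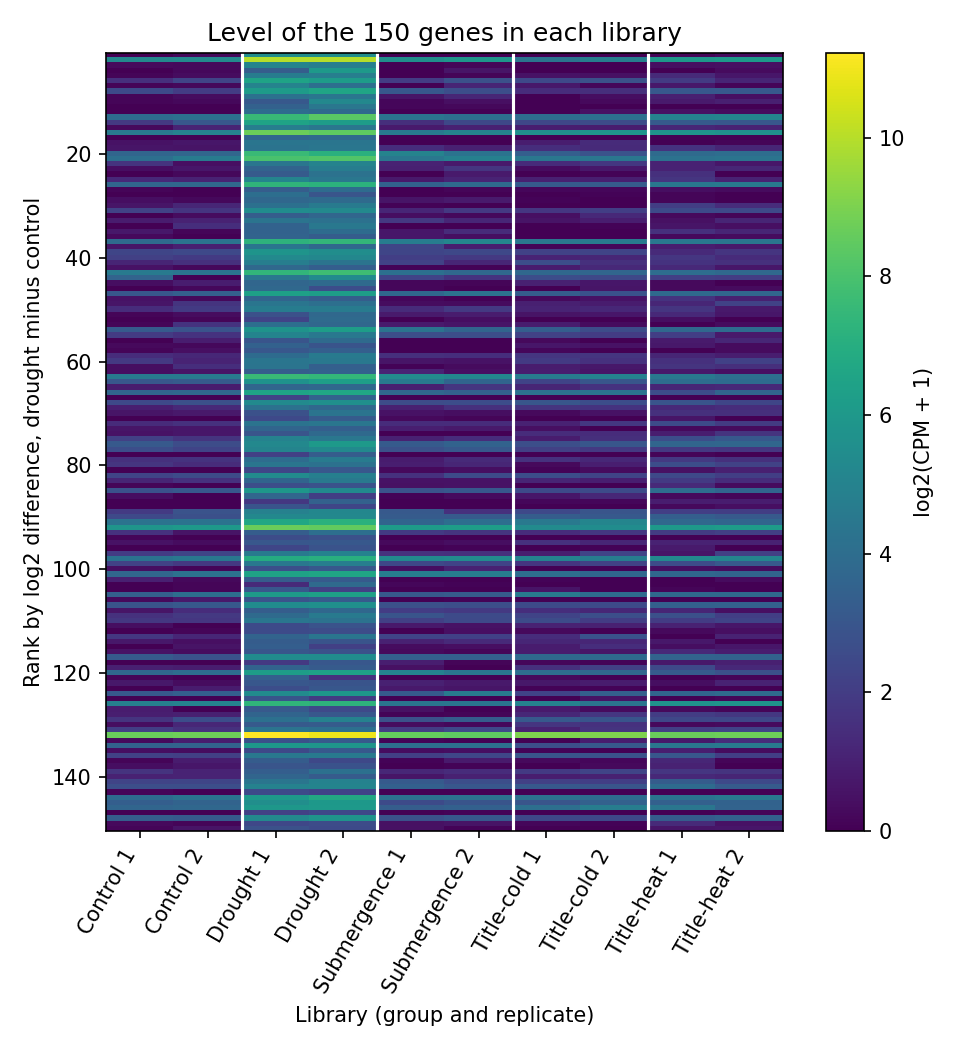
Level of each of the 150 genes (rows, ordered by rank) in the 10 libraries (columns, 2 per group), as log2(CPM + 1) by colour. The drought columns are the brightest in every row, and the row of rank 132 is bright in all libraries, with 413 CPM in control and 2162 CPM under drought.

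The gene of rank 1, c158033.graph_c0, was close to silent outside drought. It had 425 and 456 counts in the drought libraries, 0 and 2 in control, 0 in both submergence and both title-cold libraries, and 1 and 2 in title-heat. Its mean was 45.1 ± 1.3 CPM under drought (SD, n = 2) and its d was 5.40. The ratio of drought to control was 432, with a 95% counting interval of 119 to 3569 because control held only 2 counts.

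The gene of rank 2 was read in every library, at a far higher level. It had 36.5 and 37.5 CPM in control, 1018 and 999 CPM under drought, 45.5 and 57.4 CPM under submergence, 18.7 and 26.8 CPM in title-cold, and 61.2 and 63.6 CPM in title-heat. The drought libraries were 27.2 times control (counting interval 25.2 to 29.4), and the libraries of the other treatments lay on both sides of control.

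The other genes of ranks 1 to 10 differed in where the 3 other treatments lay relative to control, and at ranks 4 and 10 the drought libraries were far apart. Over ranks 1 to 10, d ran from 3.97 to 5.40, mean control levels from 0.098 to 37.0 CPM and mean drought levels from 18.7 to 1009 CPM. Of these 10 genes, 7 had counts in control that were under 10 in at least 1 library, and the other 3 had 10 or more in both. Rank 6 is an example of the latter, with 17 and 40 counts in control and 878 and 722 under drought. Its libraries in the other treatments held 44 and 94 counts under submergence, 63 and 87 in title-cold, and 26 and 10 in title-heat, all far below drought.

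The member with the highest drought CPM, c167376.graph_c0, ranked 132, and its ratio of drought to control was the lowest among the members with 10 or more counts in both controls. It stood at 401 and 424 CPM in control, 2390 and 1934 CPM under drought, 375 and 348 CPM under submergence, 533 and 528 CPM in title-cold, and 402 and 429 CPM in title-heat. The ratio was 5.22 (counting interval 5.10 to 5.35), and its title-heat mean of 415 ± 19 CPM lay within the spread of control, 413 ± 16 CPM (SD, n = 2). The third member by drought CPM, at rank 92, had 57.4 and 64.9 CPM in control and 407 and 364 CPM under drought, and between 42.0 and 74.1 CPM in the 6 libraries of the other treatments.

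**Figure D2:**
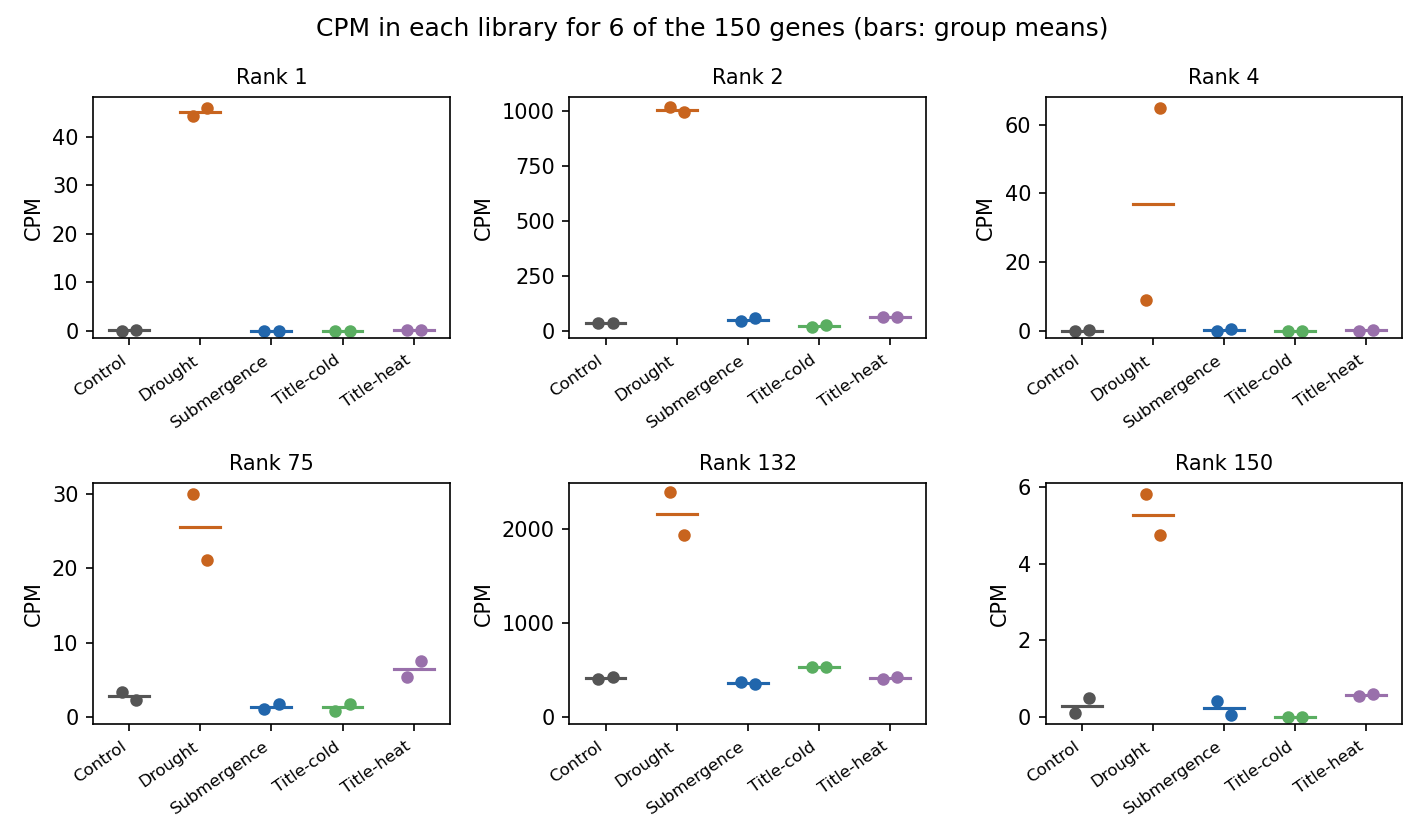
CPM of 6 of the 150 genes in each library (points), by group, with group means as bars (n = 2) and an axis from 0 for each gene. Drought points lie above all others in each panel, and at rank 4 the drought libraries are far apart, at 9.05 and 65.0 CPM.

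The median of the mean drought levels was 19.2 CPM over ranks 1 to 75 and 10.7 CPM over ranks 76 to 150, and that of the control means 0.784 and 1.15 CPM. Rank 75 had 3.36 and 2.25 CPM in control, 30.1 and 21.2 CPM under drought, 1.03 and 1.72 CPM under submergence, 0.807 and 1.81 CPM in title-cold, and 5.37 and 7.49 CPM in title-heat, so that title-heat stood between control and drought. Rank 150 had 1 and 5 counts in control, 56 and 47 with drought, 6 and 1 with submergence, 0 in both title-cold libraries, and 5 in both title-heat libraries. Mean drought levels were under 5 CPM in 6 members, from 5 to 10 CPM in 39, from 10 to 50 CPM in 75, from 50 to 100 CPM in 16, from 100 to 1000 CPM in 12 and above 1000 CPM in 2. Control means were under 5 CPM in 114 of the 150.

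Values just inside and just outside the limits of the rule were close together. Under drought, d was 2.294 and 2.282 at ranks 149 and 150 and 2.280 and 2.275 at ranks 151 and 152. The member nearest the bound under submergence had a d of 0.99 there, and the nearest gene left out by that bound alone 1.01. For title-cold these values were 0.97 and 1.00, and for title-heat −0.98 and 1.01. In all, 877 genes had a drought d of at least that of rank 150, and 727 of them were left out by the bounds. Of the 727, 581 had a d of at least 1 in title-heat, 308 under submergence and 161 in title-cold, and 330 were left out by a single bound.

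The members fell into 3 classes by their reads in control. In 65 genes both controls had at least 10 counts, and here drought was 5.22 to 27.5 times control, with a median of 7.95. In 71 genes the controls held some counts but fewer than 10 in at least 1 library, and the ratio had a median of 24.1 and a range of 6.02 to 432. In the remaining 14 genes both controls had 0 counts, and with control set at 3 counts per library drought was at least 12.5-fold to at least 49.2-fold higher. The order of these ratios differs from that of d, in which the added 1 CPM compresses differences of genes with few reads. Among all 21817 genes that passed the count filter, 78.1% had 10 or more counts in both controls, against 43.3% of the members. For 61 members drought was the sole group through which they passed the filter, so these entered through their drought reads alone, and 55 members had at least 10 counts in all 10 libraries.

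The drought libraries resembled each other less for these genes than for all genes that passed the filter. The gap between them had a median of 0.35 on the log2(CPM + 1) scale in the members and 0.27 over all, and it was above 1 in 17 of the 150 members, beside 7.76% of all genes that passed the filter. In 12 of the 17 drought replicate 2 was the higher library and in 5 replicate 1. The widest gap, 2.71, was that of rank 4, with 87 and 644 counts, and rank 10 had 72 and 370. Gaps were below 0.5 in 93 members. In control, submergence, title-cold and title-heat the members' median gaps were 0.25, 0.19, 0.21 and 0.18, against 0.25, 0.23, 0.26 and 0.22 over all genes that passed the filter. The added 1 CPM narrows the gap of a gene with few reads.

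**Figure D3:**
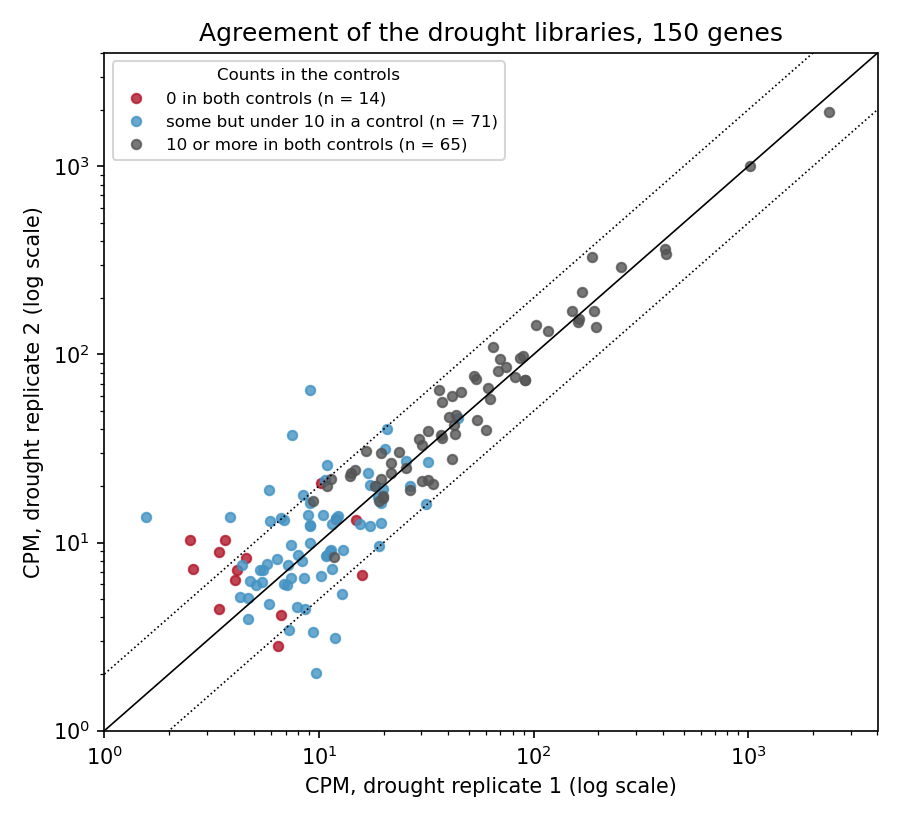
CPM of the 150 genes in drought replicate 1 (x) and replicate 2 (y), both on log axes, coloured by their reads in control. The solid line marks equal values and the dotted lines a 2-fold difference; genes with 10 or more counts in both controls lie nearest the line, with a median gap of 0.28, against 0.85 for those at 0 in both.

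Both drought libraries stood above all 8 others in 150 of 150 members, where 12.8% of all genes that passed the filter had this order. The rule nearly fixes this order through the group means, so nothing is read from it. The lower drought library exceeded the highest other library by a median of 1.86 on the log2(CPM + 1) scale, with a range of 0.66 to 5.19, and by more than 1 in 140 members. The next highest group after drought was title-heat in 64 members, submergence in 36, title-cold in 35 and control in 15.

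edgeR's quasi-likelihood test, fitted to 27571 genes in all 10 libraries with a Benjamini-Hochberg adjusted p below 0.05 as the threshold, was applied to drought against each other group. Against control it called 148 of the 150 members higher and 0 lower, where 15.2% of all tested genes were called higher and 11.7% lower. The rule used this contrast. The members that were not called, at ranks 44 and 127, had controls that differed strongly, with 97 and 0 counts at rank 44 (200 and 396 under drought) and 7 and 0 at rank 127 (drought 76 and 45). Against submergence 149 members were called higher (21.7% of all tested genes), against title-cold 146 (21.5%) and against title-heat 140 (11.3%), and 0 were called lower in each, against backgrounds of 33.7%, 19.9% and 10.9%. Both sides of these contrasts enter the rule through control. The 10 members not called against title-heat had fitted log2 differences of 1.66 to 3.69 with adjusted p from 0.0562 to 0.16 (edgeR), and 9 of the 10 had title-heat above control. In all, 137 members were called above each of the 4 other groups. The rule favours this count and its share among all tested genes was not counted, so nothing is read from it.

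The other treatments left the members spread on both sides of control, with title-heat tilted upward. Median d was 0.02 for submergence, 0 for title-cold and 0.25 for title-heat, beside 0.03, 0.08 and 0 over all genes that passed the filter. Above control were 78 members for submergence, 72 for title-cold and 109 for title-heat, and below it 64, 71 and 38. Values above 0.5 occurred in 31, 32 and 51 members, and values below −0.5 in 20, 18 and 13. The sign of the tilt in title-heat was the same with total counts in place of TMM (102 above and 45 below) and with upper-quartile factors (99 and 48). In the other 2 treatments it moved with scaling: total counts gave 106 above and 36 below under submergence and 96 and 47 in title-cold, and upper-quartile factors gave 71 and 71 and 70 and 73. Total counts shift the median d of all genes that passed the filter by 0.55 for submergence, 0.48 for title-cold and −0.14 for title-heat. Upper-quartile factors shift it by −0.19 under drought, −0.13 under submergence and −0.16 in title-heat.

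**Figure D4:**
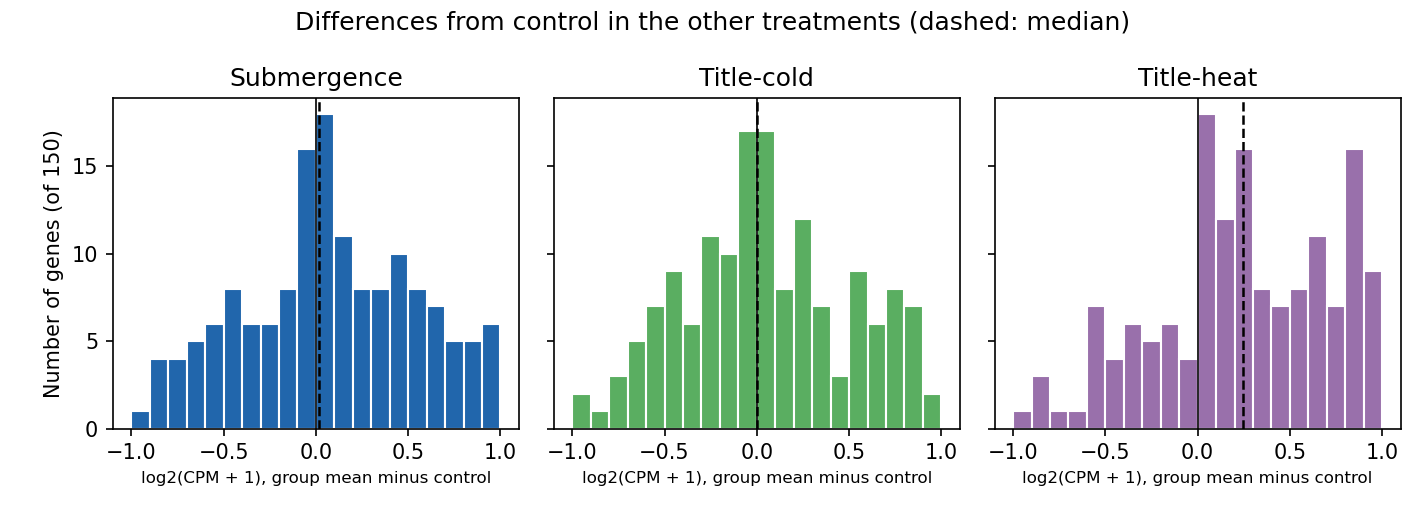
Histograms of d, the group mean of log2(CPM + 1) minus that of control, for the 150 genes in the 3 treatments that the rule bounds at −1 and 1. The solid line marks control and the dashed line the median, which is 0.02 for submergence, 0 for title-cold and 0.25 for title-heat.

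Staying within 1 of control in the other treatments was a property of the log2(CPM + 1) scale for many of the members. On edgeR's fitted scale, which adds a smaller constant to low counts, 54 of the 150 lay within −1 and 1 of control in all 3 other treatments. The other 96 were above 1 or below −1 in at least one, and those only below −1 were still raised by drought alone. Among the 65 members with 10 or more counts in both controls 46 were within these limits, against 6 of the 71 with few control reads and 2 of the 14 with none. Above 1 on the fitted scale were 32 members under submergence, of which 7 were called, 29 in title-cold, of which 2 were called, and 49 in title-heat, of which 9 were called. Below −1 were 30, 31 and 16 members. Most of the values above 1 thus did not pass the test, and many rest on few counts. On the log2(CPM + 1) scale 52 members stayed within −0.5 and 0.5 in all 3 treatments. The next most frequent patterns were 17 members above 0.5 in title-heat alone, 11 above it in title-cold alone, and 11 above it under submergence and in title-heat.

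Part of the members were called different from control in these treatments although their d was bounded. Under submergence 15 were called higher and 17 lower (edgeR), beside 32.2% and 17.1% of all tested genes. In title-cold 6 were called higher and 13 lower, beside 11.1% and 12.2%, and in title-heat 16 higher and 2 lower, beside 12.3% and 8.33%. The bound on d lowers such counts, and nothing is read from their distance to the background. Both libraries were above both controls in 47 members for submergence, 43 for title-cold and 65 for title-heat, beside 37.4%, 38.1% and 34.8% of all genes that passed the filter, and below both in 36, 33 and 16, beside 34.1%, 31.2% and 33.3%. Total counts gave 46 higher and 8 lower under submergence, 28 and 2 in title-cold and 8 and 4 in title-heat. Of all tested genes, 46.0% were then higher and 10.6% lower under submergence. These shares were 25.3% and 6.78% in title-cold, and 10.1% and 10.83% in title-heat. Upper-quartile factors gave 6 and 23 under submergence and 12 and 6 in title-heat, beside 28.9% and 20.3%, and 10.5% and 11.0%, of all tested genes. When a library of either compared group was left out, fewer members were called, and smaller shares of all tested genes. For submergence the members' median fitted log2 difference was 0 or 0.17 without control replicate 1 or 2, beside 0 with all libraries. Without submergence replicate 1 or 2 this median was 0.05 or −0.01. For title-cold it was 0 or 0.17 without control replicate 1 or 2, beside 0 with all libraries. It was 0 without either title-cold library. Calls in title-cold also fell, for members and all tested genes, without drought replicate 2 or title-heat replicate 1, where the median was 0. For title-heat the median was 0.54 or 0.74 without control replicate 1 or 2, beside 0.58. Without title-heat replicate 1 or 2 it was 0.37 or 0.64.

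Comparisons among the 3 other treatments set neither drought nor control against another group, but they are not independent of the rule. The members were chosen by d against control in these same groups, which bounds the differences below 2 in d, and the drought and control libraries share in the filter, scaling and dispersions of the fit. With only the 2 groups compared in the fit, 26 of the 91 members that it tested were called in title-heat against title-cold. The fit to all libraries tested 150 and called 36. Title-heat against title-cold had 27 members higher and 9 lower (edgeR, adjusted p below 0.05), beside 19.6% and 17.8% of all tested genes, which is 18% and 6% of the members. Both title-heat libraries were above both title-cold libraries in 62 members and below them in 32. These orders held in 36.3% and 42.0% of all genes that passed the filter. Submergence against title-heat had 9 members higher and 36 lower, beside 33.5% and 20.9%, and submergence against title-cold 23 and 20, beside 31.3% and 17.4%. The first 2 of these splits turned with total counts. Title-heat against title-cold then had 14 members higher and 32 lower, beside 11.7% and 35.99% of all tested genes. Submergence against title-heat had 34 and 18, beside 51.5% and 12.5%. For title-heat against title-cold the split was 29 and 8 with RLE factors, 25 and 11 with upper-quartile factors and 28 and 10 with DESeq2. The shares of all tested genes were 19.9% and 17.2%, 18.5% and 19.0%, and 19.5% and 15.5%. In title-heat against title-cold the members' median fitted log2 difference was 0.19 or 0.55 without title-heat replicate 1 or 2, beside 0.47 with all libraries. In submergence against title-heat it was −0.07 or −0.38 without them, and −0.42 or −0.60 without submergence replicate 1 or 2, beside −0.41. In each of these runs fewer members were called, and smaller shares of all tested genes.

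**Figure D5:**
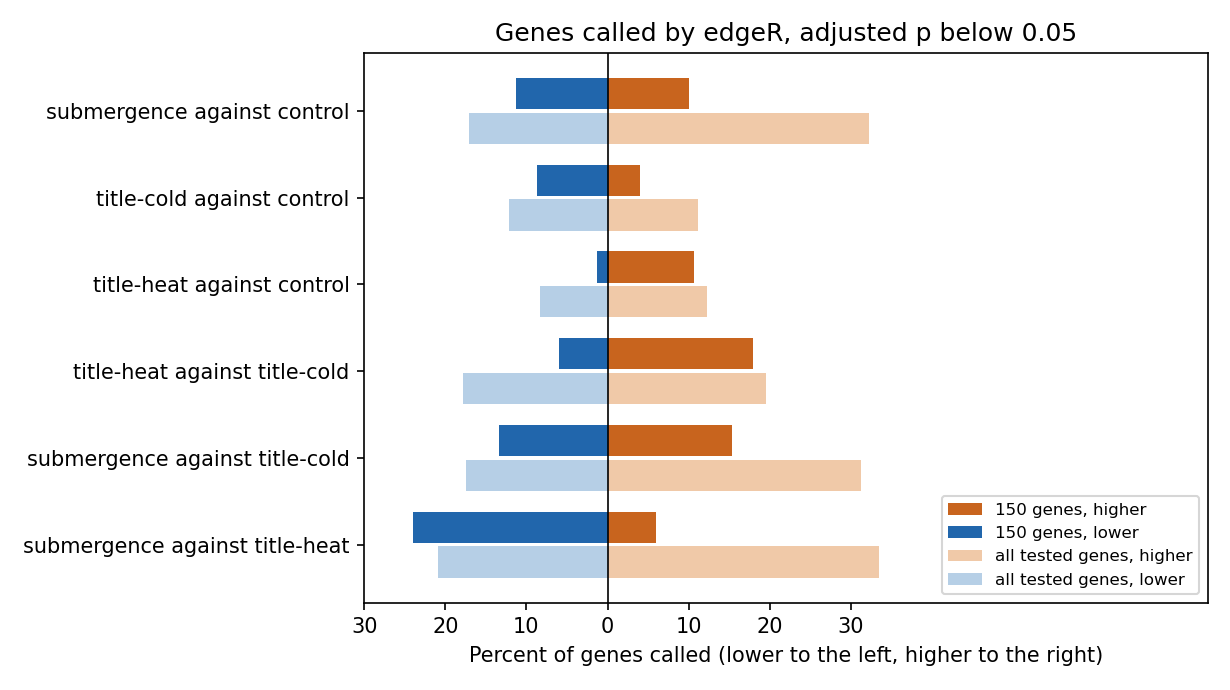
Percent of the 150 genes (dark bars) and of all 27571 tested genes (pale bars) called higher (right of 0) or lower (left of 0) by edgeR with TMM factors in 6 comparisons that leave out drought. In title-heat against title-cold the genes have 18% higher and 6% lower calls. With total counts 14 of the 150 genes were higher and 32 lower, beside 11.7% and 35.99% of all tested genes.

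Membership itself depended on the added constant, on scaling and on single libraries. With 0.5 CPM added in place of 1, 92 of the 150 genes were again among the top 150, and with 5 CPM 66 were, while 41 were in all 3 rankings. With 5 CPM 143 genes still met the rule at some rank and with 0.5 CPM 104 did. The 65 members with 10 or more counts in both controls supplied 31 of the 41. With scaling to total counts 106 of the members were again in the top 150, with upper-quartile factors 127 and with RLE factors 146. Without drought replicate 1 the top 150 held 107 of the members, the lowest number when any one library was left out.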

How the data were processed

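RNA-seq of leaves from 10 libraries was deposited by the authors as 1 table of whole-number read counts per assembled sequence cluster. Per the submitters' processing notes RSEM and DESeq 1.10.1 were used, with no role given. If RSEM made the counts they are rounded estimates in which reads of similar sequences were split. The assembly is not named in the sources used here, nor is the aligner. The table's name refers to bermudagrass and cold, but its columns match this series' sample descriptions.

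The count filter, TMM CPM, d and the ranking are given in the report, and edgeR 4.0.16 in R 4.3.3 computed them. For tests, filterByExpr left 27571 genes. One quasi-likelihood model with robust dispersions and a coefficient per group was fitted to all 10 libraries, with 5 residual degrees of freedom and a biological coefficient of variation of 30%. Benjamini-Hochberg adjustment ran over all tested genes. The scripts were tested on simulated data. Intervals are exact at 95% and cover counting error only. Alternatives were other scalings, filters and added constants, DESeq2 1.42.0, a replicate block and leaving out each library. The 2 printed identifiers are rank 1 and the highest mean drought CPM. Other members were taken by position: ranks 2 to 10, 75 and 150, those highest in drought CPM, and those nearest a bound or with the widest drought gap. Ranks 44 and 127 were chosen after their values were seen. Members and lists were chosen with earlier results of these data known. Sequences were not used here.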

Additional observations from a re-analysis of the deposited data

How the results depend on the processing

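Results are for the 150 genes. Those called in the 4 contrasts with drought stayed within 1.5 times of the reported number under each alternative run that kept 2 libraries per group. The rule favours these calls, so nothing is read from their stability. Of these 4 contrasts, drought against title-heat lost the most calls when 1 library, from title-heat, was left out. The shares of all tested genes called in this contrast fell as well. The members' median fitted log2 difference was 3.52 without title-heat replicate 1 and 3.28 without replicate 2, beside 3.42 with all libraries. Some other counts moved by more than 1.5 times. With a constant of 0.5 or 5 CPM, 92 or 66 genes were again in the top 150, and the ranking depends on that constant by construction. Total counts gave 54 called members under submergence and 30 in title-cold against control. Of all tested genes, 46.0% were then called higher and 10.6% lower under submergence, and 25.3% and 6.78% in title-cold. Without a filter on low counts 31 were called in title-cold and 43 in title-heat against control, 61 in title-heat against title-cold and 65 in submergence against title-cold. Of all genes then tested, 8.87% were higher and 9.32% lower in title-cold, and 9.15% and 7.89% in title-heat against control. The shares were 13.3% and 13.5% in title-heat against title-cold, and 22.5% and 12.9% in submergence against title-cold. Fits of only the groups compared have fewer libraries, and in contrasts without drought their own filter left out part of the members. They called 13 of 79 members tested under submergence and 6 of 87 in title-cold against control. Of all genes they tested, 36.1% were higher and 19.3% lower, and 13.3% and 16.1%. In submergence against title-cold they called 27 of 91 members tested, and in submergence against title-heat 29 of 86. Here the shares were 33.7% and 18.2%, and 39.4% and 24.3%. The cause of the other moves was not tested. With each library left out in turn, called members ranged from 13 to 34 for submergence, 6 to 18 for title-cold and 3 to 17 for title-heat against control, from 23 to 37 for title-heat against title-cold, and from 27 to 47 for submergence against title-heat. Where a group then had 1 library, it was assumed to vary like the others. The replicate numbers in the titles did not pair the samples, since deviations of same-numbered libraries correlated at −0.02 to 0.05 over 10 pairs of groups. With the replicate block the members called against control numbered 147 for drought, 27 for submergence, 14 for title-cold and 15 for title-heat. Depth limits the members with few control reads, whose ratios have wide counting intervals.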

Other observations

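Gene identifiers in the table consist of an assembly component and a cluster within it, and clusters of one component may be parts, copies or alleles of one gene. The 150 members came from 149 components, and the 2 members that shared one, at ranks 83 and 105, had 9.98 and 5.89 times their control level under drought. Components of 33 members also held other clusters of the table, 33 of which passed the count filter. Of these 33 clusters, 17 had a d of at least 1 under drought (51.5%, beside 16.7% of all genes that passed the filter), 10 had a d of at least 1 in title-heat, and 8 met the rule. The cluster that shares a component with rank 12 had a drought d of 4.37 and was left out by its title-cold d of 1.00, and one that shares a component with rank 108 stood at 4.97 under drought and 5.03 in title-heat. How reads were divided among clusters of one component was not tested.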
